A study of Mus musculus with 2 samples.

Results

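The genes of glycolysis and of the pentose phosphate pathway were followed in aortic smooth muscle cells (SMCs) that had or had not lost Tsc1. The set held 33 genes, chosen by name as the enzymes, transporters and regulators of these pathways, and all 33 were found among the 28000 features measured. Levels were taken over the fate-mapped cells of 2 droplet single-cell RNA libraries, 1 per genotype, so the differences below rest on no replicates and no test was possible. The knockout (KO) library came from mice with the genotype Tsc1fl/fl.Myh11-CreERT2.mT/mG, labelled Tsc1−/−. The Control library came from Myh11-CreERT2.mT/mG mice, labelled Tsc1+/+. All mice were C57BL/6 males, were given tamoxifen at 1.5 weeks of age and were studied at 24 weeks. Myh11-CreERT2 is a tamoxifen-inducible recombinase driven by a smooth muscle myosin promoter, and the mT/mG reporter turns on membrane eGFP in a cell in which the recombinase has acted. Cells of the thoracic aorta were released with collagenase and elastase at 37 °C and sorted for GFP, and how many animals each library pools is not stated in the sources used here.

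Glycolysis splits glucose into pyruvate. Glucose enters through a transporter, is trapped by hexokinase, is committed by phosphofructokinase, and yields ATP at phosphoglycerate kinase and pyruvate kinase. Pyruvate is then reduced to lactate and exported, or carried into mitochondria and oxidised by pyruvate dehydrogenase. The pentose phosphate pathway branches off after hexokinase: its oxidative arm makes NADPH and its non-oxidative arm makes ribose for nucleotides and returns carbon to glycolysis. Tsc1 encodes hamartin, which with tuberin restrains the kinase complex mTORC1. In cultured mouse fibroblasts mTORC1 is known to raise transcripts of glycolysis through HIF1A, and of the oxidative pentose phosphate arm through SREBP. Contractile SMCs of arteries are known for making much lactate even when oxygen is plentiful.

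Cells were kept with at least 5 eGFP UMIs (unique molecular identifiers, which count molecules rather than their PCR copies), at least 500 genes and at most 10% of UMIs from mitochondrially encoded genes. This left 1919 of 2097 KO cells with 30778165 UMIs and 1692 of 2095 Control cells with 20011501 UMIs. The median cell held 15012 UMIs in the KO library and 11665 in the Control library. Levels are UMIs per 1000000 UMIs of the kept cells (CPM), and ranges in parentheses are 95% counting intervals, which leave out differences between animals and preparations. A count of 3 UMIs, the limit that a count of 0 allows, equals 0.0975 CPM in the KO and 0.150 CPM in the Control library. The libraries shared 4 kept barcodes. Tsc1 itself had 263 UMIs in KO and 191 in Control cells, a ratio of 0.895 (0.740 to 1.08), but the counted tag of a droplet library can lie outside a deleted part, so these counts do not check the labels. Over each library as a whole, the smooth muscle markers Acta2, Tagln, Myh11, Cnn1, Myl9, Smtn and Lmod1 summed to 20895 CPM in KO and 43465 CPM in Control cells. The 8 macrophage markers summed to 13.7 and 17.8 CPM. In the least contractile KO cells the smooth muscle sum was far lower, as given below. The 5 endothelial markers summed to 11.6 CPM in KO and 19.8 CPM in Control cells, of which Pecam1 made up 11.2 and 18.4 CPM. Vwf had 11 UMIs in KO and 28 in Control cells, Kdr had 1 and 0, and Cdh5 and Tie1 had 0 in both libraries. Fibroblast markers summed to 1662 CPM in KO and 1455 CPM in Control cells, with members in opposite directions: Dcn had 352 and 22.9 CPM, Lum 254 and 6.10 CPM and Pdgfra 25.2 and 7.05 CPM in KO and Control cells, while Col1a1 had 395 and 442 CPM, Col1a2 636 and 974 CPM and Pi16 0.0325 and 3.95 CPM. The median share of mitochondrial UMIs was 5.73% in KO and 4.77% in Control cells, and 10 genes of the dissociation stress response summed to 8483 and 14388 CPM. The median share of UMIs from a list of 15 contractile genes was 2.37% in KO and 5.29% in Control cells, and this difference between the libraries runs beside every comparison of genotype below.

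The promoters of 4 members are shown. Pgd and Slc16a3 have the highest and the lowest ratio between the libraries among members at 10 CPM or more. Ldha and Ldhb are an isoform pair of 1 step with KO to Control ratios of 1.15 and 1.44. Members not shown, such as Pfkm (0.471) and Rpe (1.84), differ more between the libraries than this pair. Each window is 300 bases of the gene's strand, from RefSeq with the build GRCm38.p6. Capitals mark ACGTG, the core that hypoxia-inducible factors bind, and CACGTG, the E-box, on either strand. An E-box holds the ACGTG core on both strands, so these matches overlap.
Pgd, chr4:149166656-149166955, minus strand: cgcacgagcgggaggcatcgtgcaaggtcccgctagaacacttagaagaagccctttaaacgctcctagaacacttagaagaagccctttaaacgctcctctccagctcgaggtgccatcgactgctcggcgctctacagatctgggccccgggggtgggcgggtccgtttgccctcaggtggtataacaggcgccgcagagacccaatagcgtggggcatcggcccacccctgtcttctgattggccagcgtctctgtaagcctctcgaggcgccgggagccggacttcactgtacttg
Slc16a3, chr11:120948817-120949116, plus strand: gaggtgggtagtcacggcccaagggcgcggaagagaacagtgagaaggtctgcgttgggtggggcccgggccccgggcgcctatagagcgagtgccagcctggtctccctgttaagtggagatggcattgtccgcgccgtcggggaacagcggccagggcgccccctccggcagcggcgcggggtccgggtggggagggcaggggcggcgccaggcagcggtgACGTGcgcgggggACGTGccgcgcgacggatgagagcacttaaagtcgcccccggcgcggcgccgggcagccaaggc
Ldha, chr7:46845554-46845853, plus strand: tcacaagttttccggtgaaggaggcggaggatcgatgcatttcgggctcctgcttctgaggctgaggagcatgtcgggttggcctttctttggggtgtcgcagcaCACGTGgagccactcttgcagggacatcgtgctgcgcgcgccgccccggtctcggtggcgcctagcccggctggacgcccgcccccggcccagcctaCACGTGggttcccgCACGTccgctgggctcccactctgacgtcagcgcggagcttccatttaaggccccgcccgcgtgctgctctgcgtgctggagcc
Ldhb, chr6:142507908-142508207, minus strand: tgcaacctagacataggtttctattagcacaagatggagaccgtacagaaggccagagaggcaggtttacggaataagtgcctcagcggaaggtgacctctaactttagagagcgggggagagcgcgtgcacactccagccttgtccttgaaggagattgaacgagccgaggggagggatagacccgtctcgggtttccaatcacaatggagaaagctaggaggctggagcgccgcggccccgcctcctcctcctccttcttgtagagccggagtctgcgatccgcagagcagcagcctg
The Ldha window held 5 ACGTG matches over both strands and 2 E-boxes, the Slc16a3 window held 2 ACGTG matches, and neither motif was in the Ldhb and Pgd windows. For Pgd and Ldha a further RefSeq window each was searched and held neither motif. All 33 members had at least 1 window, and 15 of them (45.5%) held ACGTG in 1 or more of their windows, against 21.8% of 27025 genes. The E-box was in 4 members (12.1%) and in 8.09% of all genes. A match is a run of letters and was not tested as a binding site, and members with and without a match stood at both ends of the ratios below.

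Taken as one sum, the pathway genes hardly differed between the libraries. The 33 members made up 0.520% of UMIs in KO and 0.510% in Control cells, or 5204 and 5100 CPM, a ratio of 1.02 (1.01 to 1.03). Of the 29 members with a mean of at least 10 CPM over the 2 libraries, 4 were 1.5 or more times higher in the KO library (Hk1, Bpgm, Pgd and Rpe), 3 were lower by as much (Pfkm, Pfkp and Slc16a3), and 22 lay between. Among all 7720 genes at that level, 11.8% were higher and 10.8% lower by the same limit, so the members' counts were near the background on both sides. Their median log2 ratio was 0.12, against -0.01 for all genes. The sums by role were close as well: the ratio was 1.26 (1.20 to 1.31) for glucose entry, 1.01 (0.994 to 1.03) for the upper steps of glycolysis, 0.979 (0.967 to 0.990) for the lower steps, 1.05 (1.03 to 1.06) for the handling of pyruvate and lactate, and 1.12 (1.09 to 1.15) for the pentose phosphate genes. The differences lay in single steps and isoforms, described next in the order of the pathway. Levels of different genes are compared as tags, without division by length, since 1 tag is counted per captured molecule; how well each gene's end is captured and annotated also enters them.

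**Figure D1:**
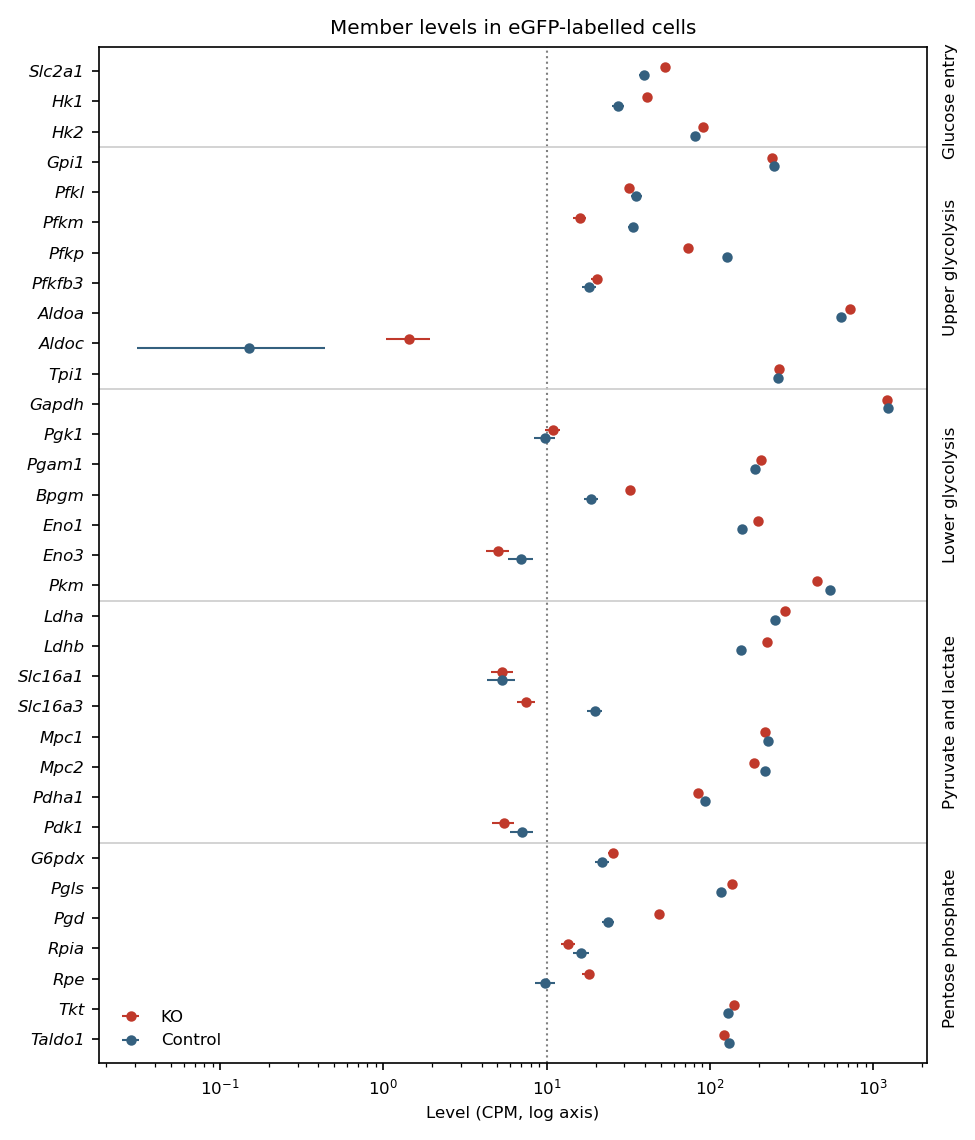
Level of each of the 33 members in the KO (red) and Control (blue) libraries, in CPM on a log axis, grouped by role. Bars are 95% counting intervals, and the dotted line is the level of 10 CPM. Gapdh has the highest level in both libraries (1219 in KO and 1240 in Control), and 4 members, Aldoc, Eno3, Slc16a1 and Pdk1, lie left of the line in both.

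At glucose entry, all 3 members had a ratio above 1. Slc2a1, which encodes the glucose transporter GLUT1, had 52.9 CPM in KO and 39.6 CPM in Control cells, a ratio of 1.34 (1.23 to 1.46). It supplied 93.6% of the UMIs of the Slc2a1 and Slc2a3 pair in KO and 94.3% in Control cells, so the neuronal transporter gene Slc2a3 was minor in both. Slc2a4, the gene of the insulin-responsive transporter GLUT4, is outside this pair and went the other way. It had 6.08 CPM in KO and 20.0 CPM in Control cells, a ratio of 0.304, so the pair is not all of glucose transport. Hk2, the insulin-responsive hexokinase of muscle, had 90.9 CPM in KO and 80.6 CPM in Control cells, a ratio of 1.13 (1.06 to 1.20). Hk1 (chromosome 10, 62268855 to 62379908, mm10), the housekeeping hexokinase, had 41.4 CPM in KO and 27.3 CPM in Control cells, a ratio of 1.52 (1.37 to 1.68), just past the limit, and the call was lost under 8 of the 13 other settings tried for it. Hk1 thus took 31.3% (29.9 to 32.7) of the UMIs of the Hk1 and Hk2 pair in KO and 25.3% (23.5 to 27.2) in Control cells, and Hk2 remained the larger part in both.

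The phosphofructokinase step was lower in the KO library. Its 3 genes summed to 121 CPM in KO and 196 CPM in Control cells, a ratio of 0.619 (0.592 to 0.648), the widest gap of any step of the trunk with more than 1 gene. Pfkp (chromosome 13, 6579768 to 6648777, mm10), the platelet-type isoform, had 73.3 CPM in KO and 127 CPM in Control cells, a ratio of 0.579 (0.547 to 0.613). Pfkm (chromosome 15, 98092589 to 98132451), the muscle isoform, had 16.0 CPM in KO and 33.9 CPM in Control cells, a ratio of 0.471 (0.418 to 0.530). Pfkl, the liver isoform, had 32.1 CPM in KO and 35.5 CPM in Control cells, a ratio of 0.905 (0.821 to 0.998). With 2 isoforms lower and Pfkl near its Control level, Pfkl made up 26.5% of the step in KO and 18.1% in Control cells. Pfkm made up 13.1% in KO and 17.3% in Control cells, and Pfkp stayed the main isoform with 60.4% and 64.6%. Pfkfb3, whose product makes the allosteric activator fructose-2,6-bisphosphate, had 20.3 CPM in KO and 18.2 CPM in Control cells, and its interval of 0.977 to 1.27 held 1.

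The other upper enzymes were abundant and near equal. Gpi1, the isomerase that follows hexokinase, had 241 CPM in KO and 248 CPM in Control cells. Tpi1, which interconverts the triose phosphates, had 266 and 261 CPM in KO and Control cells. Aldoa, the main aldolase, had 719 CPM in KO and 634 CPM in Control cells, a ratio of 1.13 (1.11 to 1.16). Aldoc, the aldolase isoform best known from brain, was below 10 CPM in both, with 44 UMIs in KO and 3 UMIs in Control cells. That is a ratio of 9.54 with a counting interval of 3.06 to 48.0, the widest fold among the members, but Aldoa still held 99.80% of the aldolase UMIs in KO and 99.98% in Control cells.

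Among the lower steps the trunk enzymes were again close, and the exception was a side branch. Gapdh had 1219 CPM in KO and 1240 CPM in Control cells, a ratio of 0.983 (0.968 to 0.999). Pgam1, the phosphoglycerate mutase, had 206 CPM in KO and 190 CPM in Control cells. Pkm, which encodes the pyruvate kinases of muscle and proliferating cells, had 452 CPM in KO and 548 CPM in Control cells, a ratio of 0.825 (0.805 to 0.846). Its splice forms M1 and M2 were not told apart in counts per gene. Eno1, the main enolase, had 197 CPM in KO and 157 CPM in Control cells, a ratio of 1.26 (1.20 to 1.31). It held 97.5% of the UMIs of the Eno1 and Eno3 pair in KO and 95.8% in Control cells. Outside this pair, Eno2 had 212 UMIs in KO and 100 in Control cells, and Eno1b had 97 and 64. Eno3, the muscle enolase, had 155 UMIs in KO and 139 in Control cells, under the level of 10 CPM.

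Bpgm was the only member of the lower steps past the limit. The gene (chromosome 6, 34476207 to 34505613, mm10) encodes the mutase that makes 2,3-bisphosphoglycerate, best known from red cells, where that product lowers the oxygen affinity of haemoglobin and its shunt bypasses phosphoglycerate kinase. It had 32.5 CPM in KO and 18.7 CPM in Control cells, a ratio of 1.74 (1.54 to 1.96). The red cell markers Hba-a1, Hba-a2, Hbb-bs, Hbb-bt and Alas2 summed to 2.47 CPM in KO and 0.100 CPM in Control cells. Hba-a1 and Hba-a2 had 40 and 33 UMIs in KO cells, against 0 and 1 in Control cells. Hbb-bs had 1 UMI in each library, Hbb-bt had 2 in KO and 0 in Control cells, and Alas2 had 0 in both. Over the low, intermediate and high tertile of KO cells by contractile share, described below, the sum was 6.64, 0 and 0.385 CPM. The part of red cell RNA in the Bpgm ratio was not tested. Among the main genes of each step of the trunk, Pgk1 had the lowest count, at 10.9 CPM in KO and 9.74 CPM in Control cells, 335 and 195 UMIs, and its interval of 0.933 to 1.34 held 1. The annotation that tags were counted against is not stated in the sources used here and may miss tags of a gene, so the low Pgk1 level is given as counted and may not be that of the cells.

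Some of these genes have near-identical copies. The share of 50-base words in the last 400 bases of a member's transcripts that another annotated gene also held was 80.0% for Eno1, 66.7% for Gapdh, 32.0% for Gpi1, 25.2% for Mpc1, 23.9% for Ldhb, 17.4% for Pkm, 15.7% for Ldha, 13.0% for Tpi1, 10.6% for Aldoa and 6.27% for G6pdx. It was 0% for the other members, Pgd, Pfkm, Pfkp, Slc16a3, Bpgm, Rpe and Hk1 among them. How the authors' counting treated reads that match several genes is not stated in the sources used here, so the levels of the first group are less certain.

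Among the genes of pyruvate and lactate, Ldhb took a larger share of its step in the KO library. The sum of the 2 lactate transporter genes followed, Slc16a1 and Slc16a3, was lower. Ldha, the lactate dehydrogenase subunit of skeletal muscle, had 289 CPM in KO and 251 CPM in Control cells, a ratio of 1.15 (1.12 to 1.20). Ldhb, the heart subunit, had 224 CPM in KO and 156 CPM in Control cells, a ratio of 1.44 (1.38 to 1.50), just short of the limit. Ldhb made up 43.7% (42.9 to 44.4) of the pair in KO and 38.3% (37.2 to 39.4) in Control cells. Slc16a3 (chromosome 11, 120948480 to 120960868, mm10), which encodes MCT4, the lactate exporter of glycolytic cells, had 7.51 CPM in KO and 19.7 CPM in Control cells, a ratio of 0.381 (0.323 to 0.450), the lowest among the 29 members. Slc16a1, which encodes the broadly expressed transporter MCT1, had 5.36 CPM in KO and 5.30 CPM in Control cells, 165 and 106 UMIs. Slc16a3 therefore held 58.3% (53.3 to 63.2) of the pair in KO and 78.8% (75.0 to 82.3) in Control cells, and the pair's sum had a ratio of 0.515 (0.450 to 0.589). These are transcripts, and lactate was not measured.

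Transcripts for the entry of pyruvate into mitochondria differed little. Mpc1 and Mpc2, the paired subunits of the mitochondrial pyruvate carrier, had 218 and 187 CPM in KO cells, against 227 and 219 CPM in Control cells. The ratio was 0.959 (0.924 to 0.996) for Mpc1 and 0.855 (0.822 to 0.890) for Mpc2. Pdha1, the catalytic subunit of pyruvate dehydrogenase, had 84.3 CPM in KO and 92.8 CPM in Control cells. Pdk1, a kinase that switches that enzyme off, had 168 UMIs in KO and 141 in Control cells and lay under 10 CPM in both.

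The pentose phosphate genes held the highest ratio among the 29 members. Pgd (chromosome 4, 149149991 to 149166771, mm10), the 6-phosphogluconate dehydrogenase and the second NADPH-making step, had 48.8 CPM in KO and 23.8 CPM in Control cells, a ratio of 2.05 (1.85 to 2.28). The steps before it differed less: G6pdx, the entry enzyme, had 25.5 CPM in KO and 21.9 CPM in Control cells, a ratio of 1.17 (1.04 to 1.31), and Pgls, the lactonase, had 136 and 118 CPM in KO and Control cells, a ratio of 1.16 (1.10 to 1.22). In the non-oxidative arm, Rpe (chromosome 1, 66700831 to 66719805), the epimerase that sends pentose back toward glycolysis, had 18.1 CPM in KO and 9.79 CPM in Control cells, a ratio of 1.84 (1.56 to 2.18). Rpia, the isomerase that makes ribose phosphate from the same substrate, had 13.6 CPM in KO and 16.3 CPM in Control cells, a ratio of 0.834 (0.720 to 0.967), but its ratio was 1.22 over the 1320 KO and 486 Control cells in the lower 50% of the pooled stress share, so its direction depends on the cells taken. The shared enzymes Tkt and Taldo1 (transketolase and transaldolase) had 140 and 123 CPM in KO cells, against 130 and 130 CPM in Control cells. So 2 of the 7 genes of the branch were higher past the limit, 1 in each arm, beside 11.8% of all genes, and the gene of its first, committing enzyme was not.

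**Figure D2:**
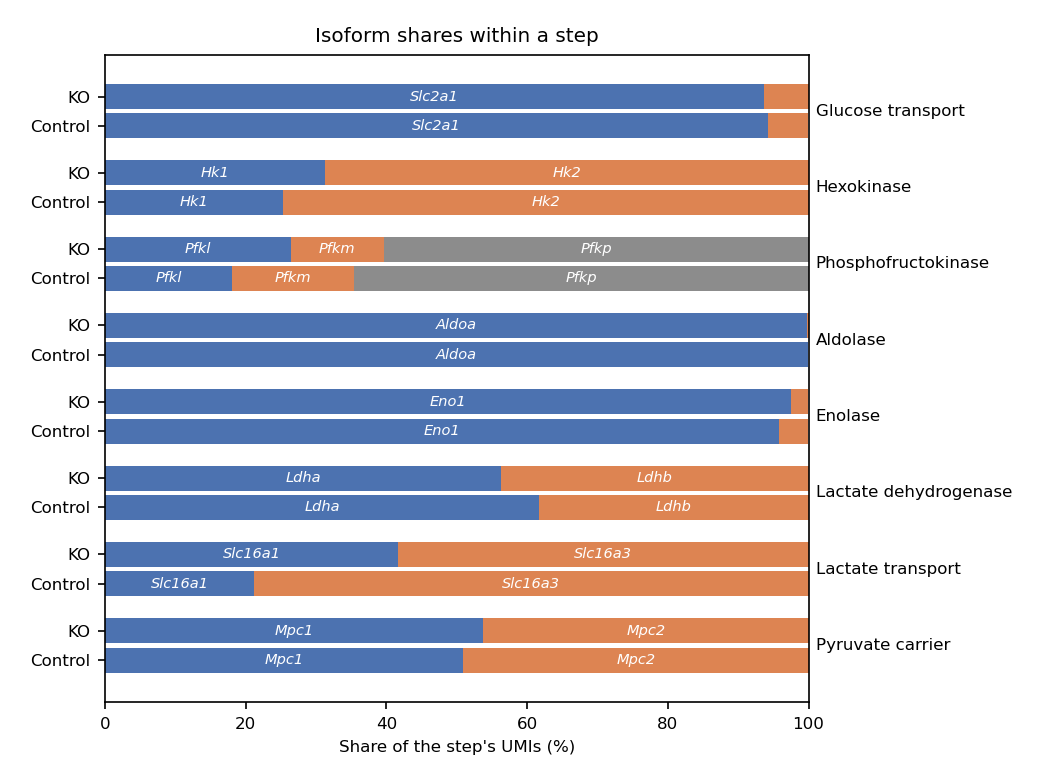
Share of each step's UMIs that came from each isoform, in percent, for the KO bar above the Control bar of 8 steps with more than 1 gene. A step's UMIs are those of the genes compared in the text, so Slc2a4, Eno2 and Eno1b are left out of the bars. Slices too thin for a name are Slc2a3, Aldoc and Eno3. The Pfkl slice is 26.5% in KO and 18.1% in Control cells, the Ldhb slice 43.7% and 38.3%, and the Slc16a1 slice 41.7% and 21.2%.

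Each library held cells with more and with less contractile RNA, so the members were also followed along that range. Contractile state was the share of a cell's UMIs from the 15 contractile genes, with limits that split the KO cells into 3 equal tertiles, 1.47% and 3.27%. Only 2 Control cells fell in the low state and 182 in the intermediate state, against 1508 in the high state, so the Control library was also divided at its own tertiles, 4.53% and 6.04%. Within the KO library 106 and 208 cells lay within 10% of the lower and the upper limit, and within the Control library 3 and 137. Levels of members by tertile and quintile are CPM of the UMIs outside the contractile list, since that list sets the state. All other levels, those at like contractile shares in both libraries included, are CPM of all UMIs.

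Less contractile cells held less RNA of the pathway in both libraries. The members summed to 4688 CPM in the low tertile and 6380 CPM in the high tertile of KO cells, a ratio of 0.735 (0.726 to 0.743). They summed to 4617 CPM in the low tertile and 6128 CPM in the high tertile of Control cells, a ratio of 0.753 (0.742 to 0.765). The lower steps of glycolysis differed most, with a low to high ratio of 0.666 in the KO and 0.666 in the Control library, and the upper steps had 0.714 and 0.765. The pentose phosphate genes had 0.857 in the KO and 0.830 in the Control library, and glucose entry had 1.13 and 1.14. That last sum rested on Hk2, described below: Slc2a1 had 0.688 (0.611 to 0.775) in the KO and 0.929 (0.772 to 1.12) in the Control library, and Hk1 had 1.06 (0.925 to 1.22) and 0.967 (0.781 to 1.20).

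Few single members passed the limit between tertiles. In the KO library 3 of 28 members were higher in the low tertile (Hk2, Pfkfb3 and Bpgm) and 3 were lower (Pfkp, Gapdh and Ldhb), against 9.25% and 9.98% of all 7744 genes, and the members' median log2 ratio was -0.22 against -0.04 for all genes. In the Control library 2 of 29 were higher in the low tertile (Bpgm and Rpia) and 3 were lower (Eno1, Pkm and Ldhb), against 11.3% and 2.37% of all 7723 genes, with a median of -0.27 against 0.11. Most of the abundant trunk enzymes lay below 1 and short of the limit: in the KO library Gpi1 had 0.684, Tpi1 0.674 and Aldoa 0.732, and in the Control library 0.797, 0.813 and 0.710.

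Gapdh, the member with the highest level, followed the gradient without a break. Over quintiles of the KO cells ordered from low to high contractile share it had 970, 1077, 1133, 1410 and 1698 CPM, and over quintiles of the Control cells 956, 1157, 1259, 1480 and 1594 CPM. Gapdh was higher at each step in both libraries, and so was Mpc1. Mpc1 had 186, 205, 221, 233 and 279 CPM over the KO quintiles and 205, 218, 224, 255 and 288 CPM over the Control quintiles. Ldhb was even over the lower 3 quintiles of the KO cells, with 197, 195 and 187 CPM, and then stood at 237 and 336 CPM, while in Control cells it had 128, 132, 157, 180 and 212 CPM. Its low to high tertile ratio was 0.641 (0.606 to 0.678) in the KO and 0.650 (0.593 to 0.712) in the Control library. Eno1 had a ratio of 0.687 in the KO and 0.551 (0.501 to 0.605) in the Control library, and Pkm had 0.701 and 0.621 (0.592 to 0.652). Pfkp had the lowest ratio of any member at 10 CPM in the KO library, 0.513 (0.462 to 0.569). Its levels there were 53.1 CPM in the low, 70.8 CPM in the intermediate and 103.6 CPM in the high tertile. In the Control library its ratio was 0.788 (0.714 to 0.869). The tertiles of the libraries span unlike ranges. Median contractile shares were 0.685% and 4.54% in the low and high tertile of KO cells, against 3.66% and 6.95% in Control cells. Whether the 2 Pfkp ratios differ was not tested.

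A small group ran against this gradient. Bpgm had 46.7, 28.5 and 23.3 CPM in the low, intermediate and high tertile of KO cells, a low to high ratio of 2.01 (1.72 to 2.36). In Control cells it had 27.1, 16.8 and 16.6 CPM, a ratio of 1.63 (1.27 to 2.10). Pfkfb3 had 27.4, 22.6 and 12.0 CPM over the KO tertiles, a ratio of 2.28 (1.83 to 2.84), and a ratio of 1.34 (1.02 to 1.75) in the Control library. Hk2 had 110.9, 97.3 and 70.4 CPM over the KO tertiles, a ratio of 1.58 (1.43 to 1.73), and a ratio of 1.34 (1.18 to 1.52) in the Control library. Rpia was past the limit in the Control library and not in the KO library, with a ratio of 1.02 (0.797 to 1.30) in the KO and 1.88 (1.42 to 2.51) in the Control library, and whether these 2 ratios differ was not tested. Ldha was nearly flat, with 0.928 in the KO and 1.03 in the Control library, so the Ldhb share of the pair was 39.5%, 41.8% and 48.6% over the low, intermediate and high tertile of KO cells and 31.6%, 39.1% and 42.3% over those of Control cells.

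**Figure D3:**
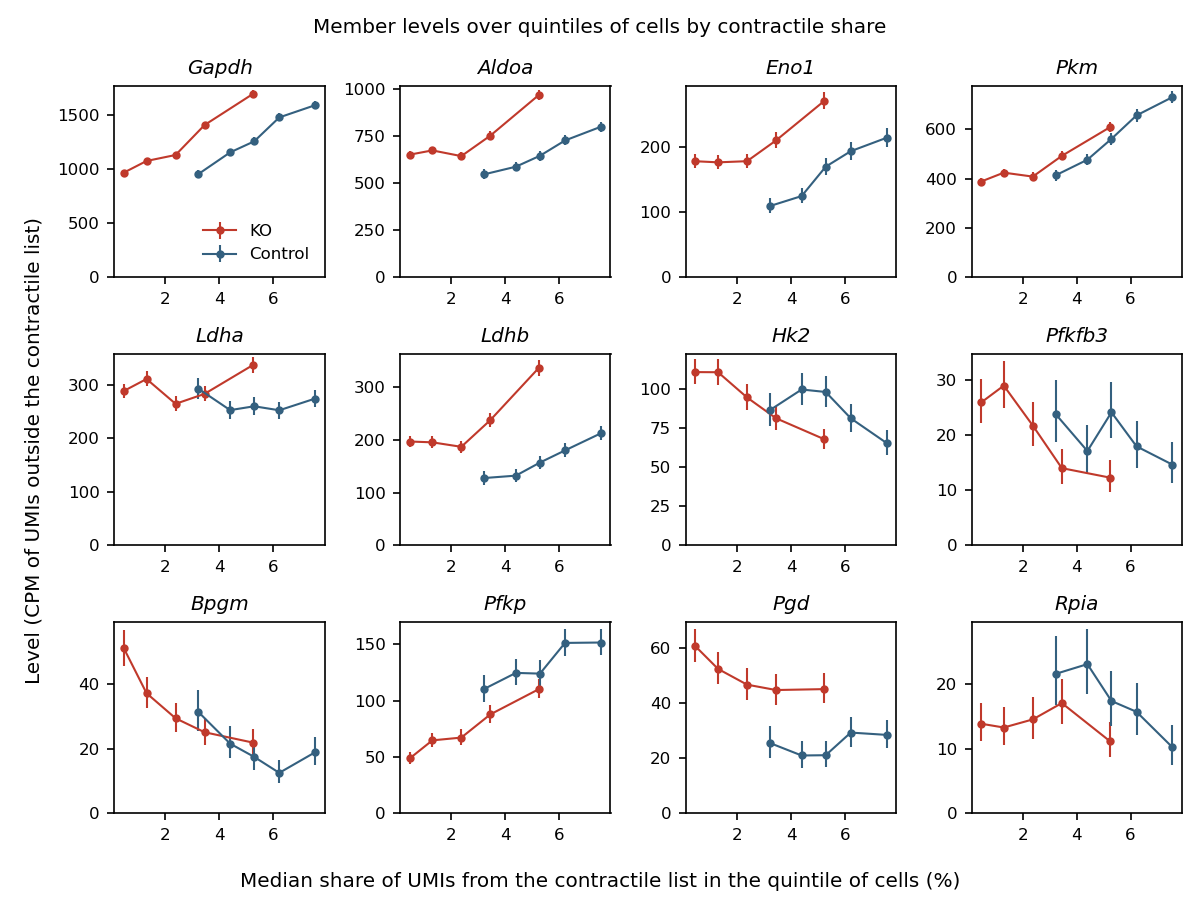
Level of 12 members, in CPM of the UMIs outside the contractile list, over quintiles of the cells of the KO (red) and Control (blue) libraries, placed at the median contractile share of each quintile in percent; bars are 95% counting intervals. Gapdh, Aldoa, Eno1, Pkm and Ldhb are highest in the most contractile quintile of each library, while Bpgm is highest in the least contractile quintile of each (50.9 CPM in KO and 31.3 CPM in Control cells). The blue points start where the red ones are already past the middle, because the libraries overlap only in part.

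Other properties of the cells ran along the same range, and their part in these ratios was not tested. The 7 smooth muscle markers, all on the contractile list, summed to 5239 CPM in the low and 39698 CPM in the high tertile of KO cells. In the low and high tertile of Control cells they summed to 27610 and 57308 CPM. Fibroblast markers summed to 3051 CPM in the low and 664 CPM in the high tertile of KO cells, and to 1997 and 1080 CPM in those of Control cells, with 0 of the 6 markers at 0 UMIs in either library. Cells with a UMI of the homeobox gene Dlx5 numbered 114 in the low and 17 in the high tertile of KO cells and 178 and 22 in those of Control cells. Bpgm was higher in cells with a Dlx5 UMI than in those without, with 57.1 and 29.7 CPM among KO cells, a ratio of 1.92 (1.62 to 2.26), and 36.0 and 15.7 CPM among Control cells, a ratio of 2.30 (1.82 to 2.89). Ldha had 1.15 and Pgd 1.42 in the KO library for the same comparison, against 1.45 and 0.973 in the Control library. A cell with more UMIs is more likely to show 1 of Dlx5, so cells without one may still express it.

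**Figure D4:**
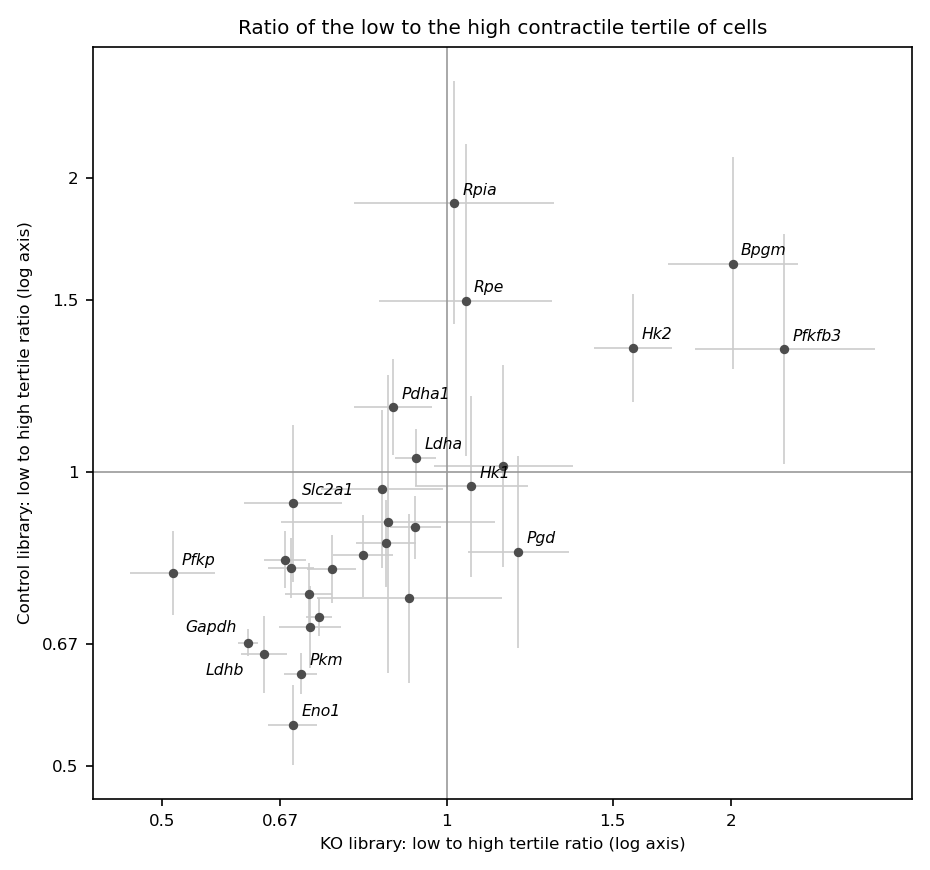
Ratio of the level in the low tertile to that in the high tertile of cells by contractile share, for each member at 10 CPM or more, in the KO library (horizontal, log axis) and in the Control library (vertical, log axis), each at its own tertiles; bars are 95% counting intervals. Gapdh, Ldhb, Eno1 and Pkm lie at the lower left, below 1 in both libraries, and Bpgm (2.01 in KO and 1.63 in Control), Pfkfb3 and Hk2 at the upper right.

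Because Control cells were more contractile and the trunk enzymes were higher in contractile cells, the genotypes were also set side by side at like contractile shares. Here levels are CPM of all UMIs, so the same KO cells have a lower sum than under the high tertile above. In the high state, with 640 KO and 1508 Control cells, the members summed to 6072 CPM in KO and 5179 CPM in Control cells, a ratio of 1.17 (1.16 to 1.18). The high state still differed in its median contractile share, 4.54% in KO and 5.54% in Control cells. A narrower range, 4 to 6%, was chosen after seeing the data and left 324 KO and 748 Control cells with medians of 4.79% and 5.03%. There the sum was 6181 CPM in KO and 4896 CPM in Control cells, a ratio of 1.26 (1.24 to 1.28), whereas over all kept cells it was 1.02. This range lies within the top tertile of KO cells, above 3.27%, but around the middle tertile of Control cells, 4.53% to 6.04%. The part of this unlike position in the ratio was not tested.

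The higher sum at a matched share was spread over the roles other than glucose entry. In the 4 to 6% range the ratio was 1.27 for the upper steps of glycolysis, 1.28 for the lower steps, 1.24 for pyruvate and lactate, 1.28 for the pentose phosphate genes and 1.04 (0.958 to 1.13) for glucose entry. Ldhb had 314 CPM in KO and 145 CPM in Control cells, a ratio of 2.17 (2.01 to 2.33). Eno1 had 247 CPM in KO and 147 CPM in Control cells, a ratio of 1.68 (1.56 to 1.82), and Aldoa had 891 and 601 CPM in KO and Control cells, a ratio of 1.48 (1.42 to 1.54). Gapdh had 1554 CPM in KO and 1190 CPM in Control cells, a ratio of 1.31 (1.27 to 1.34). Pgd kept a ratio of 1.93 (1.58 to 2.35), Pfkm 0.467 (0.360 to 0.601) and Slc16a3 0.551 (0.399 to 0.751). Pfkp had 0.768 (0.690 to 0.855), Bpgm 1.27 (0.990 to 1.63), Rpe 1.40 (1.03 to 1.91) and Hk1 1.28 (1.06 to 1.56), each short of the limit there. Hk2 had 72.2 CPM in KO and 92.1 CPM in Control cells, a ratio of 0.784 (0.692 to 0.887), below 1 at a matched share and above 1 over all kept cells. Pfkfb3 turned in the same way, with 0.615 (0.455 to 0.824). In the opposite sense, Pkm had 549 CPM in KO and 512 CPM in Control cells, a ratio of 1.07 (1.02 to 1.12), where over all kept cells it had 0.825. Gapdh, Gpi1, Pfkl, Mpc1 and Taldo1 were also below 1 over all kept cells and above 1 in this range.

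Counts of members past the limit stayed small in these ranges. In the high state 4 of 29 members were higher in the KO library (Slc2a1, Ldhb, Pgd and Rpe) and 3 were lower (Pfkm, Pfkfb3 and Slc16a3), against 8.44% and 9.57% of all 7583 genes. The members' median log2 ratio there was 0.22 against -0.02 for all genes. In the 4 to 6% range 3 were higher (Eno1, Ldhb and Pgd) and 4 lower (Pfkm, Pfkfb3, Slc16a3 and Rpia), against 8.94% and 12.5% of all 7609 genes, with a median of 0.35 against -0.06. In the 4 to 6% range the KO and Control cells also differed in the median share of UMIs from 10 dissociation stress genes, 0.776% in KO and 1.40% in Control cells, in the share of cells with a Dlx5 UMI, 1.54% and 13.9%, in the median mitochondrial share, 6.03% and 4.84%, and in median depth, 15414.5 and 11628 UMIs. The part of these in the ratios was not tested.

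**Figure D5:**
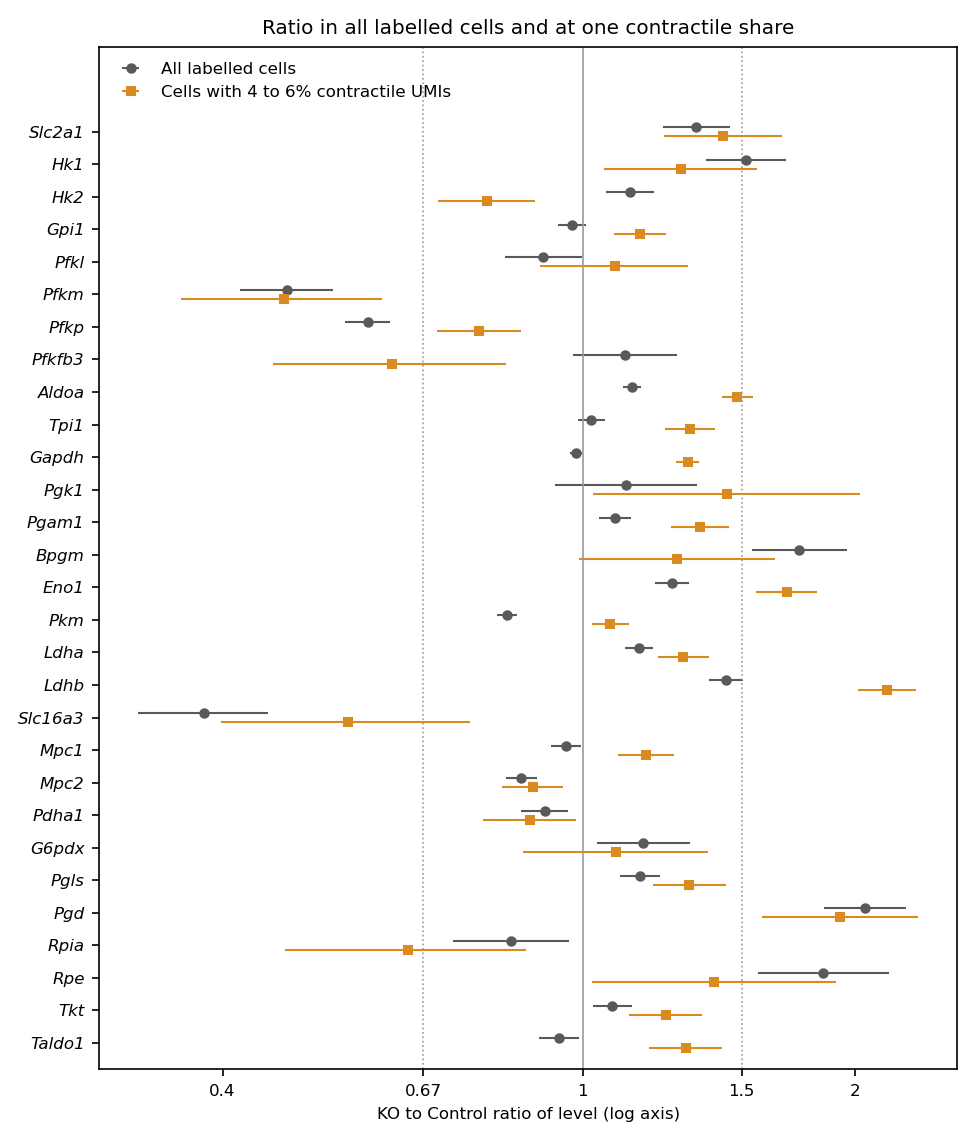
KO to Control ratio of the level of each of the 29 members at 10 CPM or more, on a log axis, over all kept cells (grey circles) and over cells with 4 to 6% contractile UMIs (orange squares); bars are 95% counting intervals and dotted lines the limits of 1.5 and its inverse. The orange squares of Ldhb (2.17), Eno1 (1.68), Aldoa (1.48) and Gapdh (1.31) lie right of their grey circles, and those of Hk2 and Pfkfb3 lie left of 1.

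The rest of the pathway was read from a list of 40 genes that are not members, of which 17 reached 10 CPM and 7 had 0 UMIs in both libraries together. Of the 17, 4 were higher in the KO library and 3 lower, beside the same background of 11.8% and 10.8%. Pdk4, a starvation-induced kinase that switches off pyruvate dehydrogenase, had 24.7 CPM in KO and 8.84 CPM in Control cells, a ratio of 2.80 (2.37 to 3.31). H6pd, which runs the oxidative pentose steps inside the endoplasmic reticulum, had 32.8 CPM in KO and 13.5 CPM in Control cells, a ratio of 2.42 (2.11 to 2.78). Gpd1l and Gpd2, of glycerol phosphate metabolism, had ratios of 1.59 and 1.57. Bsg had 596 CPM in KO and 397 CPM in Control cells, a ratio of 1.49985 (1.46 to 1.54), just short of the limit. At the other end, Slc2a4, the insulin-responsive glucose transporter GLUT4, had 6.08 CPM in KO and 20.0 CPM in Control cells, a ratio of 0.304 (0.254 to 0.362). Adpgk, an ADP-dependent glucokinase, had 10.3 CPM in KO and 27.0 CPM in Control cells, a ratio of 0.383, and Prps1, which makes the activated ribose for nucleotides, had a ratio of 0.601.

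Known regulators and branches went in mixed directions. Among 12 regulators at 10 CPM, Hif1a, the oxygen-regulated transcription factor, had 172 CPM in KO and 96.6 CPM in Control cells, a ratio of 1.78 (1.69 to 1.87). Txnip, an inhibitor of glucose uptake that is itself induced by glucose, had 67.3 CPM in KO and 111 CPM in Control cells, a ratio of 0.605, and the other 10, Myc (1.36), Esrra (1.26), Arnt (0.757) and Epas1 (0.793) among them, lay between the limits. Hypoxia targets outside the pathway split, with 2 of 11 higher and 3 lower, beside 11.8% and 10.8% of all genes. Ndrg1 had 108 CPM in KO and 30.1 CPM in Control cells, a ratio of 3.59 (3.29 to 3.93), Vegfa, the endothelial growth factor, had 1.64, and Ddit4, an inhibitor of mTORC1 signalling, had 1.49, just short of the limit. Egln3, an oxygen sensor, had 3.57 CPM in KO and 21.1 CPM in Control cells, a ratio of 0.169, Adm (adrenomedullin) had 20.7 and 103 CPM in KO and Control cells, a ratio of 0.201, and P4ha2 of collagen hydroxylation had 0.630.

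Of the side branches, the glycogen list had 0 of 6 higher and 2 lower, a list too short to read against the 11.8% and 10.8% of all genes: Pygm, the muscle glycogen phosphorylase, had 29.2 CPM in KO and 53.8 CPM in Control cells, a ratio of 0.543, and Pygb, the brain form, a ratio of 0.654. Between the limits, Ugp2 had a ratio of 0.740, Gbe1 0.797 and Phkb 0.968. Phgdh, the first enzyme of serine synthesis from glycolysis, had 25.6 CPM in KO and 12.9 CPM in Control cells, a ratio of 1.98 (1.72 to 2.29), the only one of 3 serine genes at 10 CPM past the limit, with 1.46 for Psph and 1.02 for Shmt2. In the polyol list of 4 genes, Akr1b8, of the aldose reductase family, had a ratio of 2.35 and Khk, ketohexokinase, 0.476, with 1.23 for Akr1b3 and 1.20 for Sord between the limits. None of the 4 hexosamine genes at 10 CPM passed the limit, with ratios of 0.740 for Gnpnat1 to 1.17 for Pgm3.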

How the data were processed

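The authors deposited 1 matrix per library with raw counts of UMIs for every gene and cell, and these were analysed as deposited. The submitters' processing notes name the build mm10 and the tools bcl2fastq, Cell Ranger and Seurat 2.0; settings and the calling of cells are not stated in the sources used here. CPM were the summed counts of the kept cells scaled to the library's total (Python 3.11.15, NumPy 2.4.6, SciPy 1.17.1, pandas 2.3.3). The authors' table of average expression was not used. Ratios have exact conditional binomial 95% intervals and shares exact Clopper-Pearson ones, which cover counting error only. The ratio and interval code was checked on simulated counts. No doublet caller was run: leaving out the 2% of cells with the most UMIs was an alternative. Gene positions came from GENCODE M21. The members and lists were chosen with earlier results of these data known. The text names members at a mean of 10 CPM past 1.5-fold, members of steps with several genes, and of other lists the 3 highest and 3 lowest ratios and any changed 2 or more times; other genes were named after their values were seen. The 4 to 6% contractile share and the lower 50% of the pooled stress share were added after seeing the data.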

Additional observations from a re-analysis of the deposited data

How the results depend on the processing

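Of the 13 other populations, scalings and weights tried for each member called over all kept cells, Pgd, Pfkm and Slc16a3 stayed past 1.5-fold in 13, Rpe in 12, Pfkp and Bpgm in 11 and Hk1 in 5, its ratio ranging over 1.28 to 1.65 in the 13. The low contractile state of KO against all Control cells gave the lowest Pfkp ratio, 0.417, and the highest Bpgm ratio, 2.48. The count of higher members, 4, was 0 with a floor of 50 CPM, 1 with a fold limit of 2 and 7 with a limit looser than 1.5, and the count of lower members, 3, was 1 with a floor of 50 CPM, since most called members lie below that level. The median log2 ratio of the members was 0.22 in the high contractile state of both libraries, 0.35 in the 4 to 6% range and 0.00145 for the low state of KO against all Control cells, and in the other alternatives it lay between 0.03 and 0.13. Over single members 264 ratios stayed within the 95% counting interval of the ratio over all kept cells and 113 left it; for isoform shares these numbers were 80 and 22, and for ratios between states 183 and 16. The 7 members called over all kept cells kept their direction in all 13. Of the others, Hk2 and Pfkfb3 fell below 1 in the high state (0.817 and 0.637) and in the 4 to 6% range. Gpi1, Pfkl, Gapdh, Mpc1 and Taldo1 rose above 1 in both ranges, Pkm in the 4 to 6% range only, and Rpia in the lower 50% of the stress share. Gapdh and Taldo1 also rose above 1 with a mitochondrial limit of 5%, and Gapdh with an eGFP minimum of 20 UMIs. Tpi1 fell below 1 in several settings. For the low state of KO against all Control cells Tpi1 had 0.889 and Pgam1 0.986. The low to high ratio of Ldha in Control cells, 1.03, was 0.894 without cells with a Dlx5 UMI. The cause was not tested. Each library is 1 sample, so no library could be left out, and depth limits the members under 10 CPM. No paired analysis was possible because each group had 1 library.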
